A study of Mus musculus with 7 samples.

Results

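The interleukin-1 and interleukin-18 system with its inflammasome was followed at the messenger RNA level in mouse primary keratinocytes, the epithelial cells of the epidermis, after silencing of Trp63. Its 10 genes were the agonist genes Il1a, Il1b and Il18, the antagonist gene Il1rn, the receptor genes Il1r1, Il1rap and Il18r1, the decoy receptor gene Il1r2, and the processing genes Pycard and Casp1. They were chosen by name for their known roles, with earlier results of these data known. Every probe set whose single annotated symbol was one of these names was taken. All 10 genes were present among 12393 genes with a named probe set, through 15 probe sets. Il1rn and Il1rap had 3 probe sets each, Pycard had 2, and the other 7 genes had 1.

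There were 5 arrays of cells transfected with Trp63-specific siRNA oligo (replicates 1, 2, 3, 4 and 7) and 2 arrays of cells transfected with non-specific siRNA oligo (control siRNA, replicates 5 and 6). All cells were collected 48 h after transfection, and both groups carried a transient transfection. The labels give no strain, age or number of animals, and no oligo sequences. Separate cultures are not stated either, so each p-value reflects the spread among these arrays, which may be technical alone.

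Interleukin-1 alpha and beta act through the receptor Il1r1 paired with the accessory protein Il1rap, and the product of Il1rn occupies the receptor without signalling. Il1r2 binds the ligands without signalling. Interleukin-1 beta and interleukin-18 are made as inactive precursors that caspase-1 cuts after the adaptor protein encoded by Pycard, called ASC, has gathered it into an inflammasome, whereas the interleukin-1 alpha precursor is already active. Keratinocytes are known to store interleukin-1 alpha and the interleukin-18 precursor and to release interleukin-1 alpha when damaged.

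The targeted gene separated the groups. The brightest of 3 Trp63 probe sets read 541, 519, 457, 504 and 492 with Trp63 siRNA (replicates 1, 2, 3, 4 and 7), against 1447 and 1683 with control siRNA. Its log2 difference was -1.61 (SE 0.088, limma adjusted p = 1.0e-05), and every silenced array lay below both controls. The other Trp63 probe sets were dimmer, differed by -0.49 and -0.54 (limma adjusted p = 0.00228 and 0.000339), and the mean of all 3 differed by -0.88. Median intensity per array ran from 207 to 214 and the number of arrays limits the precision of all values. Over all 22626 probe sets, 7.83% were higher and 8.16% lower with Trp63 siRNA. The basal keratinocyte keratin genes Krt14 and Krt5 were among the brightest on every array, reading 14830 and 11600 with Trp63 siRNA against 17060 and 14460 with control siRNA. Silenced replicates 1 and 2 and control replicate 5 stood apart through melanocyte markers: the summed intensity of 9 such genes was 11517 and 12182 in those silenced arrays and 10249 in that control. It was 7003 to 7383 in silenced replicates 3, 4 and 7 and 6839 in control replicate 6. The ratio of the 3′ to the 5′ beta-actin control probe set, a measure of RNA integrity, was 1.19 ± 0.043 (SD, n = 5) with Trp63 siRNA and 1.33 ± 0.037 (SD, n = 2) with control siRNA. The Gapdh ratio was 0.92 ± 0.013 (SD, n = 5) with Trp63 siRNA and 0.98 ± 0.002 (SD, n = 2) with control siRNA. Each difference had p = 0.0476 in a two-sided exact permutation test, the smallest p that 21 splits of 7 arrays allow, and their part in the results below was not tested.

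Il1a and Il18r1 rose, Pycard and Il18 fell, and 6 of the 10 genes did not pass the test. A gene is represented here by its brightest probe set, and a call means a limma p below 0.05 after Benjamini-Hochberg adjustment over all probe sets. Of 12393 genes, 8.03% were called higher and 8.57% lower, so 2 of 10 in each direction stand beside those shares. Every silenced array lay above both controls for 2 of the 10 genes, against 14.3% of all genes. Every silenced array lay below both controls for 6 of the 10, against 24.0% of all genes. The median log2 difference was -0.16 over the 10 genes and -0.04 over all genes. Among all genes Il1a ranked 25 from the highest log2 difference and Il18r1 ranked 81. Counted from the lowest, Pycard ranked 6 and Il18 ranked 33. These are RNA levels of whole cultures, in which fewer cells of a type and less RNA per cell cannot be told apart.

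**Figure D1:**
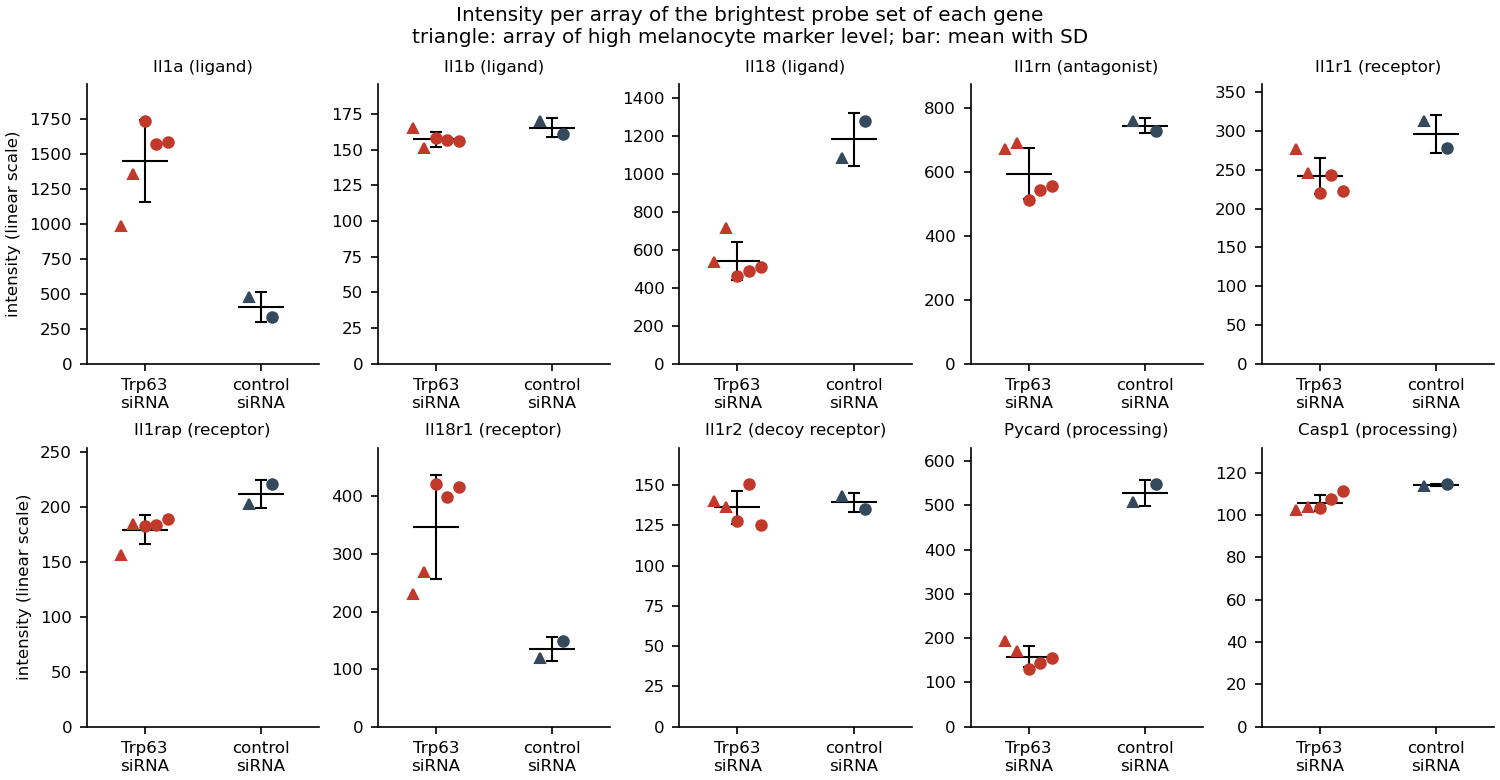
Intensity on a linear scale (vertical axes, each from 0) of the brightest probe set of each of the 10 genes, by array, with Trp63 siRNA (red, 5 arrays) left of control siRNA (dark, 2 arrays). Bars give the mean with its SD, and triangles mark the 3 arrays of high melanocyte marker level. Il1a and Il18r1 stand above both controls in all 5 silenced arrays, and Pycard and Il18 stand below both.

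The upstream regions of the gene that rose most and the gene that fell most are shown for reference, since their levels moved in opposite directions. Each runs 250 bases up to the annotated transcript start, in the direction of transcription, from the RefSeq promoter table on build GRCm38.p6. The Il1a region lies at chr2:129309973-129310222 on the minus strand and the Pycard region at chr7:127993868-127994117 on the minus strand. RefSeq's Il1a gene interval reaches upstream of this start, so part of its region may be transcribed. Capitals mark matches to an AP-1 site, written TGANTCA.
Il1a: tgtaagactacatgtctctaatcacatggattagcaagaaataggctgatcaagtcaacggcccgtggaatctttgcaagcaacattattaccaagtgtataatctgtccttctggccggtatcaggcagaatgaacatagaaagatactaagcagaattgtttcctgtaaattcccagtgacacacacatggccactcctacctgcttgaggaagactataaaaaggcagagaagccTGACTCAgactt
Pycard: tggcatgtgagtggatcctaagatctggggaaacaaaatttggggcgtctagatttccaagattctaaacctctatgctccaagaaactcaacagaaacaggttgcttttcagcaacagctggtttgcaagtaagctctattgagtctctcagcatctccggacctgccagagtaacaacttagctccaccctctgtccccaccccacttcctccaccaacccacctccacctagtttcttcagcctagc
Il1a held 1 AP-1 match, TGACTCA, at bases -12 to -6 before its start, and Pycard held none. Of 32851 such regions, 6.75% held this motif on either strand. An NF-kappaB site, written as GGG, any 5 bases and CC, occurred in neither region and in 45.8% of all. The p53 family half-site also occurred in neither and in 7.13% of all. The letters of that pattern are not given here, so its strictness cannot be judged. Among the 10 genes, with 15 annotated starts, 2 had an AP-1 match (Il1a and Il1rn), 5 had an NF-kappaB match and 1 had a p53 family half-site (Il1rap). Counted by region, as the shares above are, these were 2, 6 and 1 of 15. A match describes letters only and says nothing of binding.

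Among the agonists, Il1a and Il18 moved in opposite directions and Il1b was dim in both groups. Il1a read 985, 1356, 1739, 1571 and 1588 with Trp63 siRNA (replicates 1, 2, 3, 4 and 7), against 479 and 330 with control siRNA. The lowest silenced array was still well above the higher control, and replicates 1 and 2 were the lowest silenced arrays. The means were 1448 ± 292 (SD, n = 5) and 404.5 ± 106 (SD, n = 2), a 3.47-fold rise on the log2(intensity + 16) scale (log2 difference 1.80, 95% interval 1.32 to 2.27, limma adjusted p = 0.000648). In the arrays with high melanocyte markers the difference was 1.24, from 2 silenced arrays and 1 control, and in the others it was 2.25, from 3 and 1. Il1a was thus higher in both sets, and the part of the melanocyte level in the size of the difference was not tested.

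Il18 read 534, 717, 460, 488 and 507 with Trp63 siRNA, against 1085 and 1280 with control siRNA. All silenced arrays lay below both controls, and replicate 2 was the highest of them. The means were 541 ± 102 (SD, n = 5) and 1182 ± 138 (SD, n = 2), which left 45.8% of the control intensity. Il18 fell 2.17-fold (log2 difference -1.12, 95% interval -1.47 to -0.77, limma adjusted p = 0.00151). The difference was -0.79 in the arrays with high melanocyte markers and -1.37 in the others.

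Il1b, whose precursor product caspase-1 cuts, read 165, 151, 158, 157 and 156 with Trp63 siRNA, against 170.5 and 161 with control siRNA. The groups overlapped, and the mean of its probe set lay at the 39.1th percentile of all probe sets. The log2 difference was -0.07 with a 95% interval of -0.18 to 0.04 (limma adjusted p = 0.396). No detection calls were used, so whether Il1b was above background was not determined.

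The antagonist gene Il1rn did not pass at any of its 3 probe sets. The brightest (1451798_at) read 673, 690, 512, 544 and 558 with Trp63 siRNA, against 761 and 728 with control siRNA. Every silenced array was below both controls, with replicates 1 and 2 nearest to them. Its log2 difference was -0.32 (95% interval -0.60 to -0.05, limma adjusted p = 0.105), and that of the second (1425663_at) was -0.35 (-0.62 to -0.08, limma adjusted p = 0.0804). The third (1423017_a_at) differed by -0.09 (-0.25 to 0.07, limma adjusted p = 0.441), with overlapping groups. The brightest passed when silenced replicate 1 was left out (limma adjusted p = 0.0342) and when replicates 1 and 2 were (0.000402), in a range up to 0.377 over 20 alternatives. Either way 5 of the 10 genes were called lower, against 2 in the main comparison, and Il1rn, Il1r1 and Il1rap were the additional ones. These additional genes also passed with all arrays kept, under array weights (Il1rn limma adjusted p = 0.0171) and with the melanocyte level as a block (Il1rn limma adjusted p = 0.0183).

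Ratios between 4 pairs of these genes, chosen with earlier results known, describe their balance on each array. The log2 ratio of Il1a to Il1rn was 0.54 to 1.73 in the silenced arrays and -1.11 to -0.65 in the controls. Il1a lay above and Il1rn below both controls on every silenced array, so this separation restates their own values. The group means of the log2 ratio differed by 2.12 for Il1a to Il1rn, by 1.83 for Il1a to the decoy receptor gene Il1r2, and by 3.45 for Il1a to Pycard. No p is given for these ratios, since the values of Il1a alone separate the groups. For Il1b relative to Il1rn the difference was 0.26 (two-sided exact permutation p = 0.238, and also 0.238 when adjusted over the 4 pairs). A ratio of unlike probe sets has no meaning as a level, and only its difference between groups is compared.

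Il18r1, which encodes the ligand-binding chain of the interleukin-18 receptor, was the one receptor gene of the 10 that rose. It read 231, 269, 422, 398 and 416 with Trp63 siRNA (replicates 1, 2, 3, 4 and 7), against 120 and 149 with control siRNA. Replicates 1 and 2 were lower than the other silenced arrays yet above both controls. The means were 347 ± 90.1 (SD, n = 5) and 134 ± 20.9 (SD, n = 2), a 2.36-fold rise (log2 difference 1.24, 95% interval 0.73 to 1.75, limma adjusted p = 0.00627). Its call ended when control replicate 5 was left out (1.10, limma adjusted p = 0.0732), and also with a block for the level of the poly-A spike controls (limma adjusted p = 0.0515). The high spike level held silenced replicates 2, 3 and 7 and no control. With that block the difference therefore rested on silenced replicates 1 and 4 against both controls. In the other 18 alternatives Il18r1 passed. The control values lay below the array medians, where the added 16 units understate a fold.

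The signalling receptor genes of interleukin-1 did not pass. Il1r1 read 277, 246, 220, 243 and 223 with Trp63 siRNA, against 313 and 279 with control siRNA. The highest silenced array lay just under the lower control. The log2 difference was -0.28 (95% interval -0.48 to -0.07, limma adjusted p = 0.074). The brightest Il1rap probe set (1421844_at) read 156, 185, 183, 183 and 189 with Trp63 siRNA, against 203 and 221 with control siRNA. Its log2 difference was -0.22 (95% interval -0.39 to -0.05, limma adjusted p = 0.0761), and the groups did not overlap. The other Il1rap probe sets were dimmer, overlapped between groups and differed by -0.07 and -0.05 (limma adjusted p = 0.503 and 0.331). Without silenced replicate 1, Il1r1 (limma adjusted p = 0.0105) and Il1rap (0.0349) both passed as lower, in ranges up to 0.41 and 0.353 over their alternatives. The decoy receptor gene Il1r2 read 140, 137, 128, 151 and 125 with Trp63 siRNA, against 143 and 135 with control siRNA, with the controls inside the silenced range. Its log2 difference was -0.03 (95% interval -0.18 to 0.12, limma adjusted p = 0.78), and its sign turned among alternatives, which ran from -0.07 to 0.06. The mean of the Il1r2 probe set lay at the 32.3th percentile of all probe sets, and whether it was above background was not determined.

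Pycard, the inflammasome adaptor gene, had the largest fall of the 10. Its brighter probe set (1417346_at) read 193, 171, 129, 145 and 154 with Trp63 siRNA (replicates 1, 2, 3, 4 and 7), against 507 and 548 with control siRNA. Every silenced array was far below both controls, and all 5 silenced values lay under the median probe set of their arrays. The means were 158 ± 24.3 (SD, n = 5) and 527.5 ± 28.9 (SD, n = 2), so 30.03% of the control intensity remained (log2 difference -1.65, 95% interval -1.93 to -1.37, limma adjusted p = 5.5e-05). The difference was -1.41 in the arrays with high melanocyte markers and -1.83 in the others. The second probe set (1417347_at), annotated to the same accession, read 101 to 107 with Trp63 siRNA against 98.3 and 98.9 with control siRNA and did not pass (log2 difference 0.07, limma adjusted p = 0.178). The 2 probe sets therefore disagree. The mean of the second lay at the 16.7th percentile of all probe sets, and whether it was above background was not determined. With the mean of both probe sets as the gene's value the difference was -0.79 (limma adjusted p = 0.000152).

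Casp1, the protease gene of the inflammasome, read 102, 104, 103, 107 and 112 with Trp63 siRNA, against 114 and 115 with control siRNA. The silenced arrays lay below both controls by a few units of intensity, at the 19.6th percentile of all probe sets. The log2 difference was -0.10 (95% interval -0.19 to -0.01, limma adjusted p = 0.118). The size of the Pycard difference lies outside this interval, although a dim probe set understates change.

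**Figure D2:**
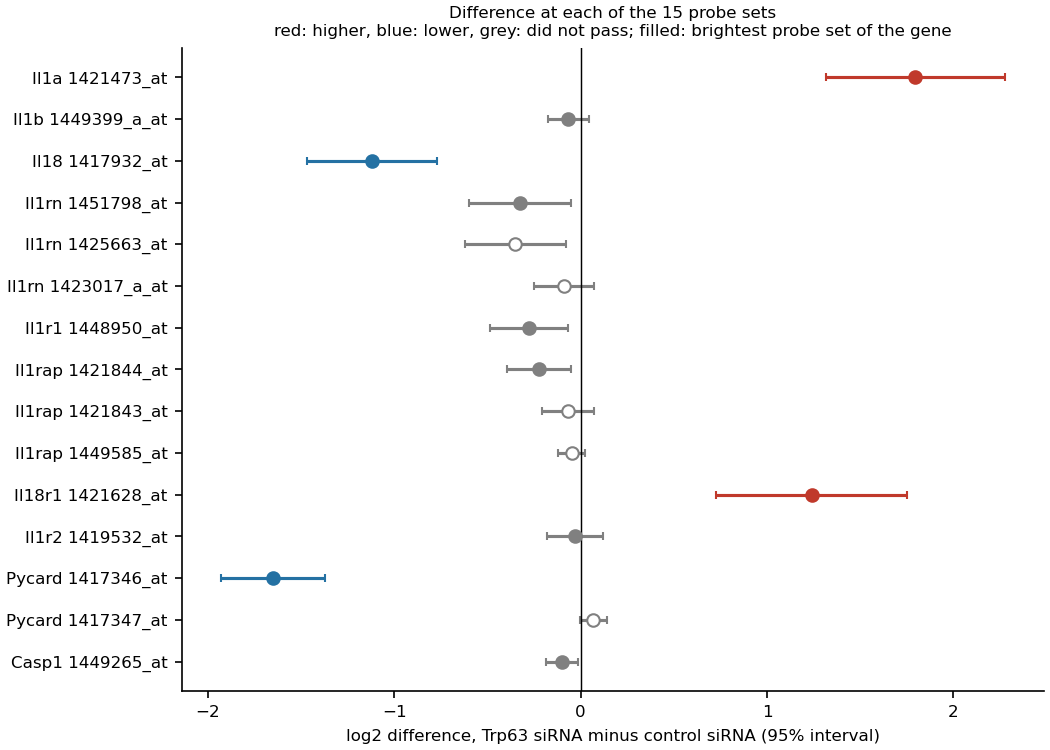
Log2 difference with its 95% interval (horizontal axis, Trp63 siRNA minus control siRNA) at each of the 15 probe sets. Filled points are the brightest probe set of a gene. The intervals of Il1a and Il18r1 lie wholly above 0.7, those of Il18 and the brighter Pycard probe set wholly below -0.7, and the dim second Pycard probe set sits at 0.07.

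Position along the chromosome gave a further description, taken up after the values were known. In the RefSeq gene order on chromosome 1 the protein-coding genes Il1r2, Il1r1, Il1rl2, Il1rl1, Il18r1 and Il18rap follow each other. The first 3 of these had log2 differences of -0.03, -0.28 and 0.05, and none passed. Il1rl1 was not analysed here. The last pair both rose. Il18rap, encoding the accessory chain of the interleukin-18 receptor, read 164, 140, 181, 162 and 173 with Trp63 siRNA, against 102 and 96.6 with control siRNA. The groups did not overlap (log2 difference 0.64, SE 0.081, limma adjusted p = 0.000954), and its values were dim throughout. On chromosome 2, Il1a and Il1b are separated by no other protein-coding gene, and only Il1a passed.

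Of 6 other interleukin-1 family ligand genes, 1 rose, 1 fell and 4 did not pass, at a median log2 difference of 0.50. With 6 genes, 1 in each direction is 16.7%, beside 8.03% and 8.57% of all genes. Il33, a nuclear cytokine of epithelial cells, read 472, 551, 356, 401 and 379 with Trp63 siRNA, against 961 and 767 with control siRNA. All silenced arrays were below both controls, and Il33 fell 1.98-fold (limma adjusted p = 0.00366, log2 difference -0.98). Without control replicate 5 it missed the threshold (-0.83, limma adjusted p = 0.051). Il1f8, the gene of interleukin-36 beta, read 505 to 681 with Trp63 siRNA against 474 and 281 with control siRNA. It rose 1.67-fold (limma adjusted p = 0.0233), and without control replicate 6 its difference was 0.38 (limma adjusted p = 0.201). It also missed the threshold without silenced replicate 2, 4 or 7 (limma adjusted p = 0.0545, 0.053 and 0.0522), and with the spike block (0.0882). The controls differed from each other at the neighbouring interleukin-36 genes as well: Il1f9 read 950 to 1514 with Trp63 siRNA against 1108 and 554 with control siRNA, and Il1f6 read 298 to 439 with Trp63 siRNA against 311 and 174 with control siRNA. Both had overlapping groups and did not pass (limma adjusted p = 0.0945 and 0.0605). Of 5 other receptor and binding protein genes Il18rap alone passed. Il18bp, whose product captures interleukin-18, differed by -0.04 (limma adjusted p = 0.655). All 5 of these genes lay below the median probe set, Il18bp at the 30.1th percentile, and whether Il18bp was above background was not determined.

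Of 22 measured genes of the signalling route from the receptor to NF-kappaB and the kinases, 6 rose and none fell, while 16 did not pass. These are 27.3% and 0% of the list, beside 8.03% of all genes called higher and 8.57% called lower. Their median log2 difference was 0.14. The list was chosen with earlier results of these data known, so its shares are not those of an unselected list. Irak1, a kinase gene of the receptor complex, rose 1.36-fold (limma adjusted p = 0.00177, log2 difference 0.44). The NF-kappaB subunit gene Rela (0.43), its inhibitor gene Nfkbia (0.51), the feedback inhibitor gene Tnfaip3 (0.44) and the scaffold gene Sqstm1 (0.45) rose too. Nfkbia read 3340.5, 2892, 3763, 3680 and 3627 with Trp63 siRNA, against 2560 and 2280 with control siRNA, with no overlap. Without control replicate 6, Rela (limma adjusted p = 0.0534), Nfkbia (0.103), Tnfaip3 (0.0504) and Sqstm1 (0.115) missed the threshold.

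Of 22 measured genes of inflammasomes and pyroptosis, 4 rose and 2 fell, while 16 did not pass. The share that rose was 18.2%, against 8.03% of all genes, and the share that fell, 9.09%, was near the 8.57% of all genes. Their median log2 difference was -0.007. Gsdma, a pore-forming gasdermin gene of skin, read 712, 668, 456, 552 and 584 with Trp63 siRNA, against 401 and 222 with control siRNA. It rose 1.91-fold (limma adjusted p = 0.0185), and without control replicate 6 the difference was 0.53 (limma adjusted p = 0.177). The initiator caspase gene Casp8 (0.49) and the lipopolysaccharide co-receptor gene Cd14 (0.52) rose, while the channel gene Panx1 (-0.50) and the calpain gene Capn1 (-0.41) fell. Without control replicate 6, Casp8 (limma adjusted p = 0.129), Panx1 (0.0684) and Capn1 (0.114) missed the threshold, and Casp8 did so without control replicate 5 as well (0.0933). With the spike block Casp8 (0.0959), Capn1 (0.0653) and Gsdma (0.0609) missed the limma threshold. The sensor genes Nlrp3 and Aim2 averaged 127 and 104 with Trp63 siRNA, had overlapping groups and log2 differences of 0.0002 and -0.0024. Their means lay at the 28.7th and 17.3th percentiles of all probe sets, and 12 of the 22 genes lay below the median probe set. Whether these dim genes were above background was not determined. The 4 pathway lists of ligands, receptors, signalling and inflammasome genes were chosen with earlier results of these data known. Over them, 12 of 55 genes rose and 3 fell (21.8% and 5.45%, beside 8.03% and 8.57% of all genes). Without control replicate 6 these counts were 3 and 1. The number that fell was 7 without silenced replicate 1 and 11 without replicates 1 and 2.

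Genes known to respond to interleukin-1 were counted as a list of 24 measured members, of which 8 rose and 1 fell, while 15 did not pass. That is 33.3% higher and 4.17% lower, beside 8.03% and 8.57% of all genes, for a list chosen with earlier results of these data known. Their median log2 difference was 0.18. Without control replicate 6, 3 of them rose. The chemokine gene Ccl20 read 498, 420, 686, 682 and 688 with Trp63 siRNA, against 218 and 158 with control siRNA, and rose 2.97-fold (limma adjusted p = 0.00111). Like Il1a and Il18r1, it was lower in silenced replicates 1 and 2 than in the other silenced arrays. Ptgs2, encoding the inducible cyclooxygenase, rose 2.14-fold (limma adjusted p = 0.00281), and without control replicate 6 it missed the threshold (limma adjusted p = 0.0506). The cytokine gene Lif rose 1.69-fold (limma adjusted p = 0.00032) and the iron-chelator carrier gene Lcn2 rose 1.49-fold (limma adjusted p = 0.00154). Lcn2 was dim, at the 39.3th percentile of all probe sets, and 10 of the 24 genes lay below the median probe set. Where probe sets below the 50th percentile were left out, 4 genes of the list rose. Icam1, an adhesion molecule gene, read 277 to 354 with Trp63 siRNA against 583 and 587 with control siRNA, and it fell 1.93-fold (limma adjusted p = 0.000276). The list shows which of these genes moved beside Il1a and does not tie them to it.

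**Figure D3:**
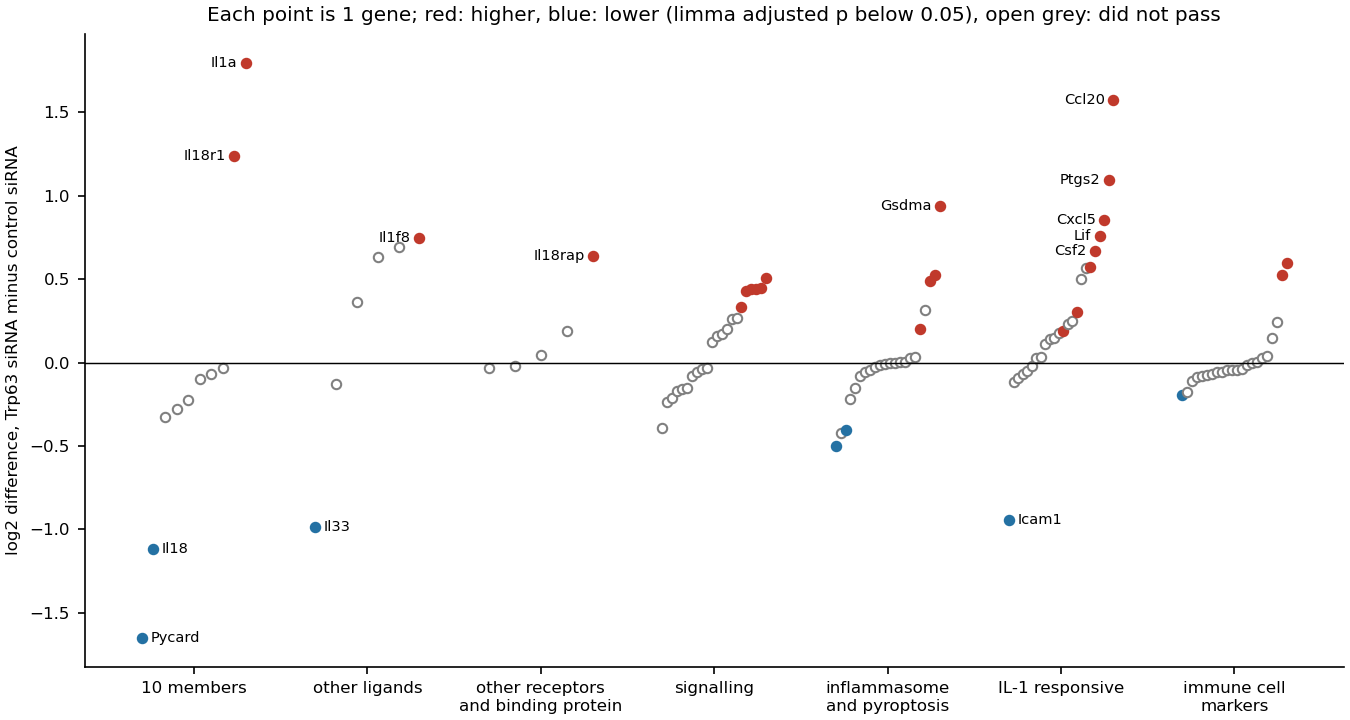
Log2 difference (vertical axis, Trp63 siRNA minus control siRNA) of the 10 genes and of each measured gene of 6 lists, 1 point a gene. Red points rose, blue points fell and open grey points did not pass. Among the IL-1 responsive genes 8 rose and Icam1 fell, with Cxcl5 (0.85) and Csf2 (0.67) labelled among those that rose, and among signalling genes 6 rose.

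Immune cells also carry many of these genes, and most of their markers did not pass. Of 22 such markers, 2 rose (Cd68 and Cd14, which the inflammasome list also holds), 1 fell (Tyrobp) and 19 did not pass, and their median log2 difference was -0.045. At 9.09% higher and 4.55% lower the shares were near the 8.03% and below the 8.57% of all genes. Their summed intensity was 3498 to 3867 with Trp63 siRNA and 3443 to 3651 with control siRNA. The leukocyte gene Ptprc read 71.7 to 77.8 with Trp63 siRNA and 73.9 and 77.7 with control siRNA, and the Langerhans cell gene Cd207 read 106 to 125 with Trp63 siRNA and 118 and 110 with control siRNA. Their means lay at the 2.15th and 24.1th percentiles of all probe sets. No array listed a value of 0, since the deposited intensities start near 58.5. The brightest immune markers, Csf1r and Cd3e, differed by -0.06 and -0.18 and did not pass. Of 12 fibroblast markers, Col5a2 (0.79) and Col1a1 (0.44) rose, Fbln1 (-0.46) fell and 9 did not pass, Col6a2 being among the brightest (0.12). The shares were 16.7% higher and 8.33% lower, beside 8.03% and 8.57% of all genes. The fibroblast markers' summed intensity was 2366 to 2511 with Trp63 siRNA and 2042 to 2240 with control siRNA, and its part in the results was not tested. None of 9 melanocyte and none of 7 endothelial markers passed by limma. The melanocyte genes Dct and Pmel differed by -0.01 and 0.16, and the endothelial genes Emcn and Esam by -0.04 and -0.09. Of 13 genes listed as keratinocyte markers, 10 fell, among them Dst (-1.60), Sfn (-0.60) and Itga6 (-0.89), and Epcam (1.76) was 1 of the 2 that rose. For this list the shares were 15.4% higher and 76.9% lower, beside the same 8.03% and 8.57% of all genes. The keratinocyte markers' summed intensity was 50152 to 54198 with Trp63 siRNA and 65689 to 69113 with control siRNA.

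**Figure D4:**
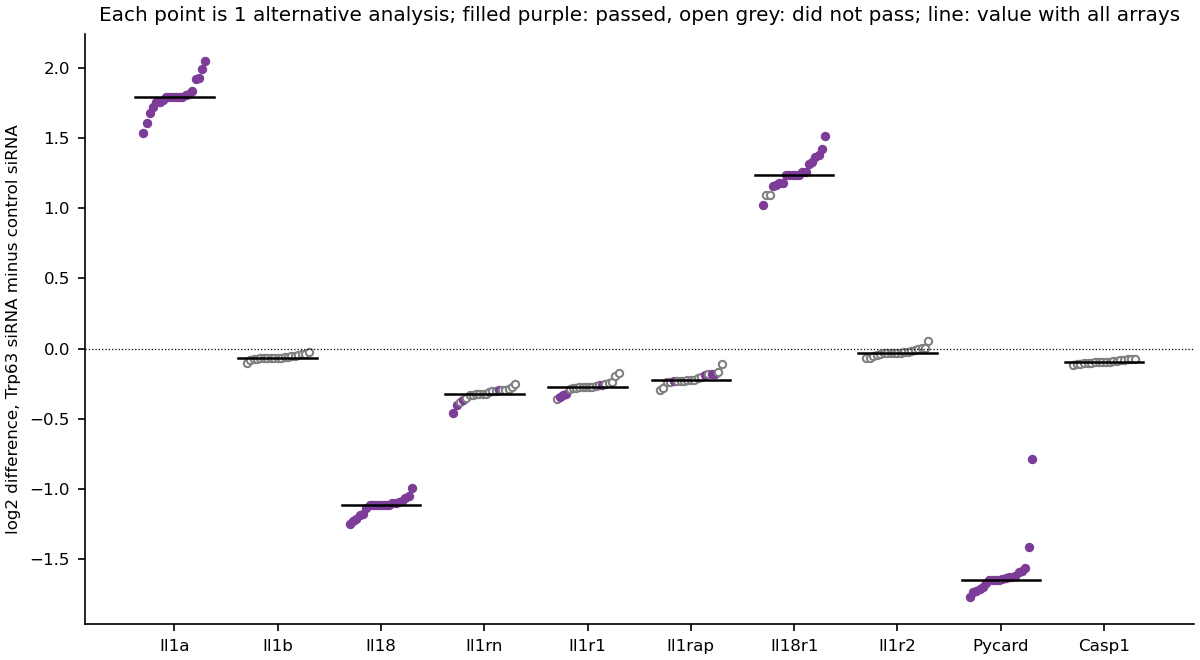
Log2 difference (vertical axis, Trp63 siRNA minus control siRNA) of each of the 10 genes under every alternative analysis in which it was measured, 1 point an alternative. Filled purple points passed the test, open grey points did not, and the line is the value with all arrays. Il1a, Il18 and Pycard passed in all 20 of their alternatives and Il18r1 in 18 of 20, and the Pycard point nearest 0 is the mean of its 2 probe sets.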

How the data were processed

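Mouse keratinocyte RNA was isolated with Trizol, labelled with biotin and read on Affymetrix arrays, per the labels' protocols. The authors deposited a linear intensity for each probe set of each array. Their probe summary, background correction and scaling are not given in the sources used. The log2 medians of the deposited intensities lay between 7.80 and 7.85, and no further scaling was applied.

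The table held 22690 probe sets, of which 64 array controls were dropped and 22626 tested. In the platform annotation 20380 had 1 symbol, 691 several and 1555 none, with 20351 found among current genes through Entrez IDs. A gene stands for its probe set of highest mean. Values were taken as log2(intensity + 16). The groups of 5 and 2 arrays were compared by lmFit and trended eBayes of limma 3.58.1 (R 4.3.3), and p-values were adjusted by Benjamini-Hochberg across the 22626 probe sets. The fit was run on simulated data with independent noise at each probe set and no effect shared across an array. That run cannot show how differences between arrays affect the calls. Alternatives changed scaling, pseudocount, filter, variance model, probe set rule, blocks and the arrays included, and leaving out a control assumes that the other varies like the silenced arrays.

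The members and lists were chosen with earlier results of these data known. Text names come from each pathway list's passing genes, up to 5 by smallest p, and from each marker list's passing genes, up to 4, with its 2 brightest. Nlrp3, Aim2, Ptprc, Cd207, Il18bp, Il1rl2, Il1f9, Il1f6 and, in a plot only, Cxcl5 and Csf2 were chosen after their values were seen. Figures were drawn with matplotlib 3.10.9.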

Additional observations from a re-analysis of the deposited data

Results flagged for a closer look

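In 3 of 34 probe sets examined, 1 of the 5 silenced arrays stood far from the other silenced arrays, judged by its gap to the nearest one over the group's range, with a limit that chance passes in about 1 of 20 groups. All 3 were silenced replicate 1. It read 156.5 for Il1rap (1421844_at), against 183.1 in the nearest other silenced array. It read 353.6 for Icam1, against 290.4 in the nearest, and 1774 for Ptgs2, against 2637 in the nearest. Silenced replicate 1 is 1 of the 3 arrays with a high melanocyte marker level, and the part of that level in these values was not tested.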

How the results depend on the processing

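No paired analysis was possible because the groups shared no replicate number. Il1a, Il18 and Pycard kept their direction and call in all 20 alternatives, with adjusted p of at most 0.0154, 0.0331 and 0.00215. With all arrays 2 genes of the 10 rose and 2 fell, 12 and 3 of the pathway genes, 8 and 1 of the IL-1 responsive genes, and 1771 and 1847 probe sets. Genes of the 10 that fell numbered 5 with array weights, 5 with the melanocyte level as a block and 5 without silenced replicates 1 and 2 together (chosen after seeing the data). Pathway genes that fell numbered 5, 5 and 11 in those analyses and 5 with the mean of the probe sets of a gene, and probe sets that fell 2823, 2895 and 3663. Without silenced replicates 1 and 2, 2912 probe sets rose. With the spike level as a block, 1 of the 10 rose and 1135 probe sets rose and 785 fell. No control was at the high spike level, so that block compared silenced replicates 1 and 4 with both controls. With the filter at the 50th percentile, 4 IL-1 responsive genes rose, since 10 of the 24 lay below the median probe set and were not tested. Other causes were not tested. Leaving out 1 array at a time gave 776 to 2326 probe sets that rose and 598 to 3176 that fell, 1 to 2 and 2 to 5 of the 10 genes, 3 to 14 and 1 to 7 pathway genes, and 3 to 9 IL-1 responsive genes that rose. The lowest counts of probe sets and list genes came without control replicate 6.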
